A study of Mus musculus with 13 samples.

Results

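Transcripts of the mitochondrial ribosomal proteins were followed through 13 RNA-seq libraries of mouse quadriceps muscle. The genes were chosen by name, as those whose symbol begins with Mrpl or Mrps and a number, without pseudogene names, provided that 3 libraries or more held at least 1 TPM. TPM, the usual length-corrected unit, give a gene's share of all transcripts in a library after division by transcript length. A total of 77 names matched, all 77 passed the filter on low values, and they were 77 of 11876 genes that passed it. By textbook assignment, 50 of them encode proteins of the large subunit and 26 proteins of the small subunit. The 77th, Mrps36, carries the name of a small-subunit protein, but its product belongs to the alpha-ketoglutarate dehydrogenase complex. A further 6 ribosome proteins that carry other names were kept apart as a list of their own.

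All libraries came from whole muscle lysates of C57BL/6 mice that received an intraperitoneal injection each day for 4 weeks. In batch 1, young (3 months, n = 4) and aged (over 24 months by the labels, n = 3) mice received vehicle, a mixture of ethanol, Cremophor EL and dextrose water. In batch 2, aged mice received either the same vehicle (n = 3) or SW033291 at 5 mg/kg (n = 3), an inhibitor of the prostaglandin-degrading enzyme Hpgd. Every mouse thus carried the vehicle or drug injections, no untreated muscle was included, young muscle existed only in batch 1 and SW033291 only in batch 2. The labels do not say what the batches were, nor whether each library came from a separate mouse, so p-values measure only the spread between these libraries.

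Mitochondria hold their own ribosomes, which translate only the few messages of mitochondrial DNA, all for subunits of the respiratory chain and the ATP synthase. The ribosomal RNAs are made inside the organelle, whereas every protein of the ribosome is encoded in the nucleus, made in the cytosol and imported. Some of these proteins descend from bacterial ribosomal proteins and others exist only in mitochondria. Muscle depends on this machinery for its oxidative capacity, and mutations in several of the genes cause disease of heart and muscle in humans. Of the 76 ribosome members measured here, 48 belonged to families shared with bacteria and 28 to families found only in mitochondria.

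Each library summed to the same total TPM, so the read depth of single libraries was unknown and no counting interval is given. In the authors' deposited table of SW033291 against vehicle, mean normalised counts of the members ran from 34.2 to 684. The part of counting error in the differences below was not tested. The deposited gene names did not stand beside their own values and were restored before use. After that, differences between SW033291 and vehicle were compared with the authors' deposited table for the 75 members with a mean normalised count of at least 50. The Pearson r across these genes was 0.835, against -0.0059 with the names as deposited. Mean TPM and mean normalised counts had a Spearman rho of 0.428 across the 77 members and 0.95 across 23988 genes. All 12 muscle fibre markers were present, with sums of 190800 to 243800 TPM. Markers of neutrophils were uneven, with 12 markers summing to 1774 TPM in aged vehicle batch 1 replicate 4, 787 TPM in aged vehicle batch 2 replicate 2 and 235 TPM in SW033291 replicate 4, against 1.45 to 22.6 TPM in the other 10 libraries. Red cell markers reached 3767 and 2185 TPM in the first pair of these libraries and at most 707 TPM elsewhere. Markers of slow and oxidative fibres, which hold more mitochondria, summed to 145 to 1354 TPM and were spread within every group. In whole tissue, fewer cells of a type and less RNA per cell cannot be told apart.

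The members spanned a wide range of levels, from 6.69 TPM for Mrpl19 to 561 TPM for Mrpl42 as means over the 13 libraries, with a median of 57.8 TPM. The highest 5 were Mrpl42 at 561 TPM, Mrps21 at 467 TPM, Mrpl33 at 286 TPM, Mrpl30 at 258 TPM and Mrpl12 at 219 TPM, and together they made up 27.1% of the summed TPM of all 77. Mrpl42 is a large-subunit protein without a bacterial counterpart, Mrps21 a small platform protein, and Mrpl12 the stalk protein that recruits translation factors. At the other end stood Mrpl19 at 6.69 TPM, Mrpl17 at 12.4 TPM, Mrps25 at 14.9 TPM, Mrpl41 at 16.1 TPM and Mrpl35 at 17.3 TPM. Between these ends, 24 members lay from 20 to 50 TPM, 25 from 50 to 100 TPM and 16 from 100 to 200 TPM. In the assembled ribosome the proteins other than the stalk protein are present in equal number. The order depended on the measure. In the authors' deposited table of SW033291 against vehicle, the members' mean normalised counts, which are not divided by length, ran from 34.2 to 684. This was a narrower span than the 83.9-fold of the TPM, with a Spearman rho of 0.428 between both measures across 77 genes. Which libraries entered those counts is unknown here, whereas the TPM means are over all 13.

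**Figure D1:**
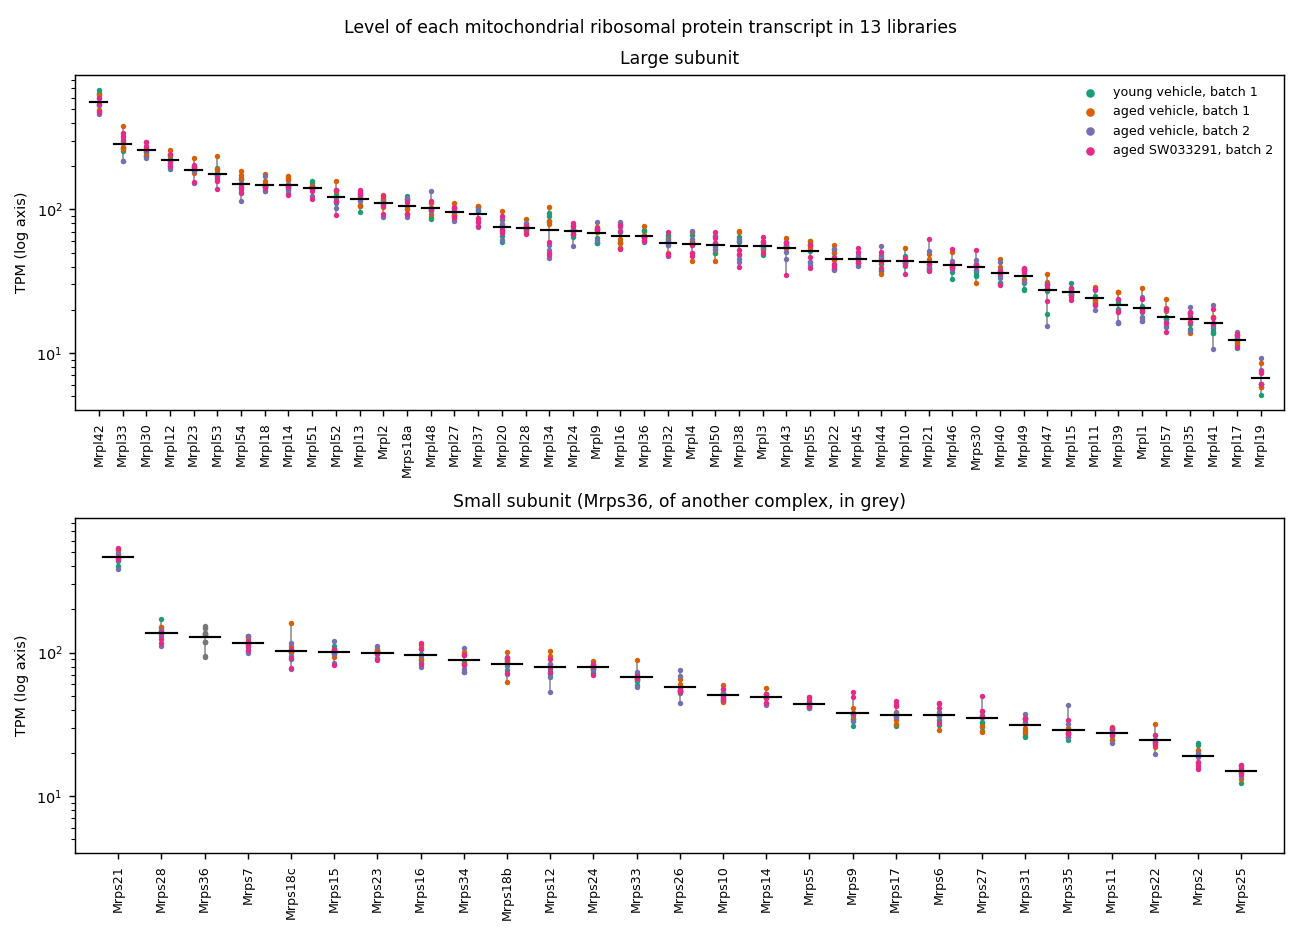
TPM (log axis) of each of the 77 transcripts in 13 libraries, large subunit above and small subunit below (Mrps36 in grey), with libraries as points coloured by group, lines from the lowest to the highest library and black bars for means. Means run from 6.69 TPM for Mrpl19 to 561 TPM for Mrpl42.

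The summed level of the 77 members was 0.627% to 0.728% of all TPM. It was 6513, 6468, 6646 and 6701 TPM in the young libraries (replicates 1, 3, 4 and 5), 6822, 6774 and 7278 TPM in aged vehicle of batch 1 (replicates 2, 3 and 4), 6321, 6271 and 6476 TPM in aged vehicle of batch 2 (replicates 2, 3 and 8) and 6950, 6368 and 6353 TPM with SW033291 (replicates 1, 4 and 6). The 3 aged libraries of batch 1 thus stood above all 4 young ones, and the 3 aged vehicle libraries of batch 2 stood below the aged libraries of batch 1. As means, the sums were 6582 ± 110 TPM (SD, n = 4), 6958 ± 278 TPM (SD, n = 3), 6356 ± 107 TPM (SD, n = 3) and 6557 ± 340 TPM (SD, n = 3). The highest sum belonged to aged vehicle batch 1 replicate 4, the library with the most neutrophil and red cell transcripts. Without it the other aged libraries of batch 1 were still above the young ones. The ratio of large- to small-subunit sums moved little, between 2.04 and 2.36 in all 13 libraries.

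The share of TPM depends on what else a library holds, and another scaling changed the picture of the young and aged groups. When libraries were scaled by the median ratio over all genes, mean sums were 6976 TPM in young, 7019 TPM in aged vehicle of batch 1, 5799 TPM in aged vehicle of batch 2 and 6612 TPM with SW033291. On this scale young and aged muscle of batch 1 lay close together, and aged vehicle of batch 2 stood further below. When the 20 most abundant genes were left out of the total, the young mean of 6836 TPM exceeded the aged mean of 6746 TPM in batch 1. Differences between groups are therefore given below beside the median over all genes, which moved by more than 0.1 on the log2 scale with the scaling in 2 of the 3 comparisons.

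The members' shared level also differed between libraries of a group. The number of members above their own mean over all libraries was 28 to 39 of 77 in the young libraries, 46, 51 and 53 in aged vehicle of batch 1, and 29, 34 and 34 in aged vehicle of batch 2. With SW033291 it was 54 in replicate 1 but 30 and 31 in replicates 4 and 6. The median deviation of a member from its own mean, in log2(TPM + 1), was 0.094 in SW033291 replicate 1, against -0.052 and -0.064 in the other SW033291 libraries. SW033291 replicate 1 also had the highest summed adipocyte markers of all libraries, 3899 TPM, against 1001 and 906 TPM in the other libraries of its group. Young replicates 1 and 3 held 3333 and 2287 TPM of the same markers, with member deviations of -0.032 and -0.066. The part of these transcripts in the members' level was not tested.

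**Figure D2:**
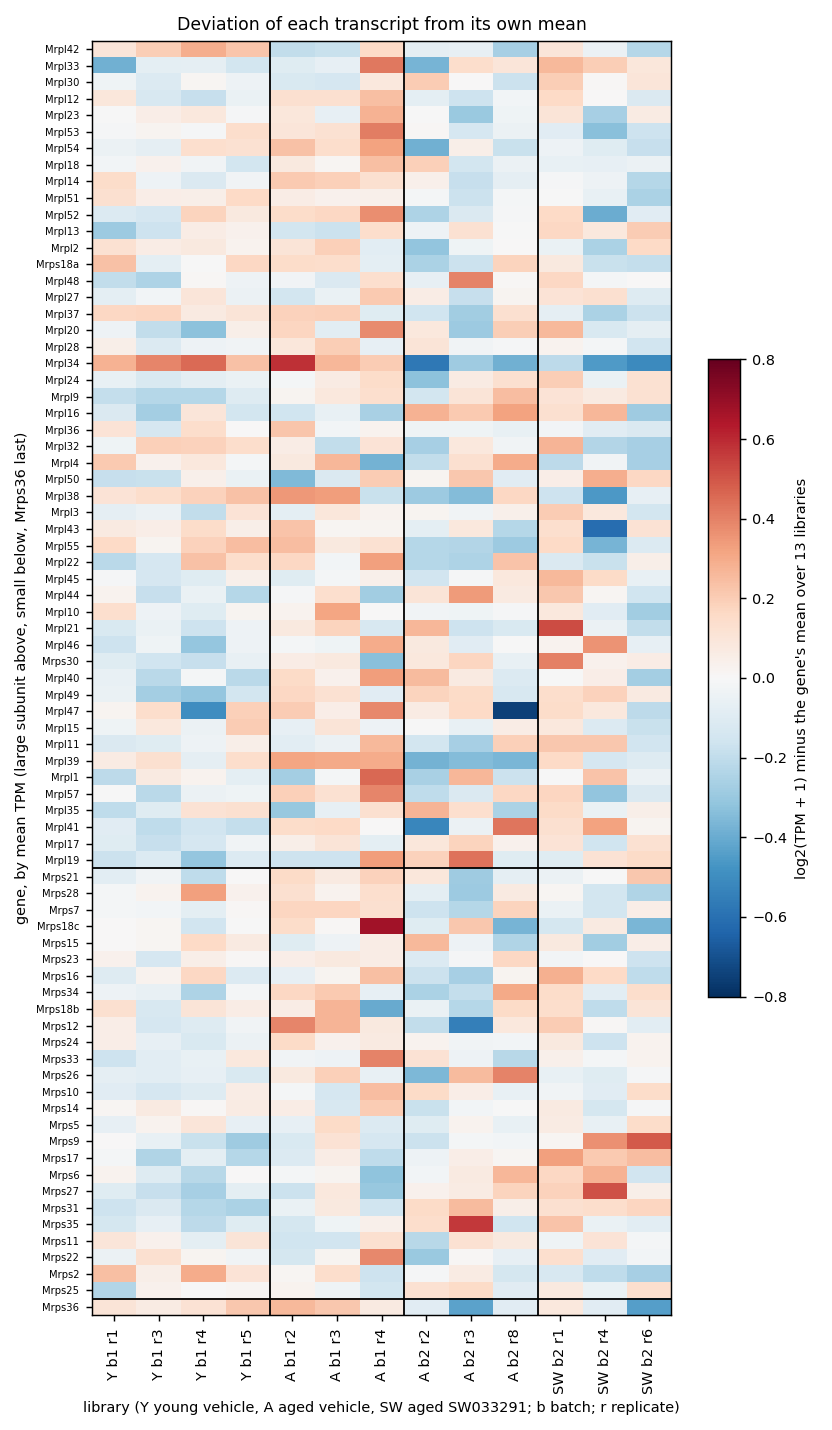
Colour gives the deviation of log2(TPM + 1) from each gene's own mean, with genes in rows (large subunit above, small subunit below, Mrps36 last) and 13 libraries in columns divided into groups. Mrpl34 is above its mean in all libraries of batch 1 and below it in all of batch 2, Mrpl39 is lowest in aged vehicle of batch 2, and single libraries stand out in rows such as Mrps18c and Mrpl47.

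Variation was small for most members. The SD of log2(TPM + 1) over the 13 libraries had a median of 0.176 among the members, 0.291 among all genes tested, and 0.253 among the 6802 genes whose mean TPM lay within the members' range. In all, 75 of the 77 members were below the median of all genes and 72 below that of the genes within this range. The genes within the range were not matched in level, with a median mean TPM of 22.9 against 57.8 for the members. The least variable were Mrps24, the counterpart of bacterial S3 at the entry of the messenger RNA, with an SD of 0.086, Mrps23 with 0.091 and Mrps5, a body protein near the same entry, with 0.092. The most variable were Mrpl34 with 0.41, Mrpl47 with 0.31 and Mrpl38 with 0.27. Mrpl47 stood at 15.5 TPM in aged vehicle batch 2 replicate 8 and 18.7 TPM in young replicate 4, against 23.1 to 35.3 TPM elsewhere, so that 2 libraries of different groups made its spread.

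Ageing was read within batch 1, from vehicle-treated muscle of both ages. No mitochondrial ribosomal protein passed the threshold, an adjusted p of 0.05 by limma with Benjamini-Hochberg adjustment over 11876 genes. Among all genes tested 0.455% passed it, 0.37% higher and 0.0842% lower in aged muscle. At an unadjusted p under 0.05 stood 8 of 77 members, 10.4%, against 9.92% of all genes. The median difference of the members in log2(TPM + 1), aged minus young, was 0.07, and that of all genes 0.06. Differences ran from -0.27 to 0.31, with 58 of 77 above 0 against 61.2% of all genes, but under median-of-ratios scaling 40 were above 0, under quantile normalization 38 and without the 20 most abundant genes 35. The median standard error was 0.12 for a member and 0.20 over all genes. Some cell type markers moved with age as well: summed muscle fibre markers were 229600 to 243800 TPM in young and 190800 to 216300 TPM in aged muscle, those of fibro-adipogenic progenitors 459.8 to 536.4 and 211.2 to 440.8 TPM, and those of tendon cells 183 to 255.2 and 71.78 to 125.5 TPM. Their part in the members' levels was not tested.

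Libraries of both ages did not overlap for 14 members, 18.2%, all of them higher in aged muscle, against 8.85% of all genes that were higher and 2.7% that were lower without overlap. These were Mrpl9, Mrpl12, Mrpl24, Mrpl39, Mrpl40, Mrpl41, Mrpl46, Mrpl54 and Mrpl57 of the large subunit and Mrps7, Mrps12, Mrps21, Mrps23 and Mrps26 of the small subunit. Overlap was counted on the TPM scale only, here and in the comparisons below, and not under the other scalings. Mrpl12, which also binds the mitochondrial RNA polymerase, was at 233, 200, 192 and 210 TPM in young and 239, 239 and 258 TPM in aged muscle. The aged libraries lay above the young ones, with a difference of 0.23 (SE 0.09, adjusted p = 0.393). Mrpl9, a protein near the base of the L1 stalk, was at 59.7, 58.1, 58.1 and 63.3 TPM in young and 69.2, 72.3 and 75.1 TPM in aged muscle. It had the lowest p of all members in this comparison, with a difference of 0.27 (SE 0.10, adjusted p = 0.344 by limma). Mrpl40, of the central protuberance, was at 30.8 to 35.5 TPM in young and 36.8 to 45.5 TPM in aged libraries, a difference of 0.30 (SE 0.13, adjusted p = 0.428 by limma). Against the vehicle-treated aged muscle of batch 2 instead, at 195 to 216 TPM, Mrpl12 showed no such separation, and its difference was -0.02.

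Mrpl42, the most abundant member, was the one with the lowest p among those that were lower in aged muscle. It stood at 595, 638, 680 and 650 TPM in young and at 486, 492 and 623 TPM in aged vehicle of batch 1. Replicate 4 of the aged group lay within the young range, and the other aged libraries lay below it. The difference was -0.27 (SE 0.11, 95% interval -0.51 to -0.04, adjusted p = 0.386 by limma). In the authors' deposited table of aged against young vehicle, Mrpl42 was the only member listed. Its log2 fold change there was -0.389, with a standard error of 0.113 and an adjusted p of 0.0225. That table holds only part of the genes, and its highest adjusted p was 0.0999. Whether its aged libraries were those of batch 1 alone is unknown here, so both results may not rest on the same comparison. Aged vehicle of batch 2 held 530, 531 and 463 TPM and SW033291 muscle 595, 540 and 475 TPM. Its promoter on GRCm38.p6, in RefSeq, is shown because Mrpl42 was both the highest member and the one in that table. The 250 bases before the start, chr10:95501950-95502199 on the minus strand, hold a ZNF143-type motif, in capitals, 45 bases before the start:
Mrpl42: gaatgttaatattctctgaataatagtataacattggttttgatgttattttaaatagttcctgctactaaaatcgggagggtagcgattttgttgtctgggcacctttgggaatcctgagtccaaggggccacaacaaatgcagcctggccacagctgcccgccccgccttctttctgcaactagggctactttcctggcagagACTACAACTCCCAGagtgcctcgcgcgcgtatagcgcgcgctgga

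By role, the age differences were spread over the whole particle. In the stalk that recruits translation factors, Mrpl10 differed by 0.11 (SE 0.12), Mrpl11 by 0.09 (SE 0.14) and Mrpl12 by 0.23 (SE 0.09). Around the peptidyl transferase centre and the tunnel exit, Mrpl3 differed by 0.06 (SE 0.11) and Mrpl45, which anchors the ribosome to the inner membrane, by 0.03 (SE 0.11). Mrpl32, which the m-AAA protease cleaves before assembly, differed by -0.13 (SE 0.14; -0.04 without aged vehicle replicate 3), and Mrpl44, mutated in a human cardiomyopathy, by 0.06 (SE 0.13). In the small subunit Mrps12, the counterpart of bacterial S12 at the decoding centre, was at 71.2 to 81.3 TPM in young and 82.8 to 103 TPM in aged libraries, a difference of 0.30 (SE 0.14, adjusted p = 0.494 by limma). Mrps2, a small-subunit protein mutated in human respiratory chain deficiency, differed by -0.17 (SE 0.12; -0.09 without aged vehicle replicate 4), Mrps16 by 0.07 (SE 0.13), Mrps22 by 0.07 (SE 0.14) and Mrps34, needed for the stability of the small subunit, by 0.20 (SE 0.14). None of these values passed the threshold. The medians by origin were 0.07 for the 48 bacterial-family members and 0.10 for the 28 found only in mitochondria.

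**Figure D3:**
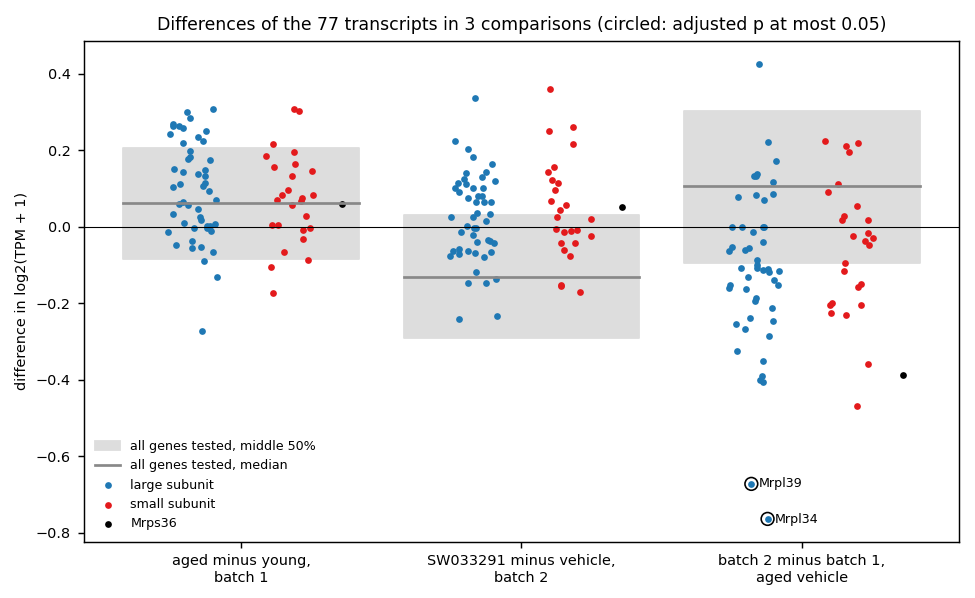
Difference in log2(TPM + 1) of each member in 3 comparisons, blue for the large subunit, red for the small subunit and black for Mrps36. Grey bands hold the middle 50% of all 11876 genes and grey lines their medians. Only Mrpl34 and Mrpl39, both lower in batch 2, passed an adjusted p of 0.05 (circled).

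The effect of SW033291 was read within batch 2, against vehicle-treated aged muscle. No member passed an adjusted p of 0.05 by limma, nor did any of the 11876 genes (0.0%), although 1221 genes had an unadjusted p under 0.05. Of the members 3 had one, which is 3.9% against 10.3% of all genes. The median difference of the members, SW033291 minus vehicle, was 0.03, whereas that of all genes was -0.13. Thus 69 of 77 members lay above the median of all genes, while 43 lay above 0. Under median-of-ratios scaling the median of all genes became -0.005 and that of the members 0.17, with 70 of 77 above 0. In the authors' deposited table of this comparison 71 of 77 members were above 0, with a median log2 fold change of 0.172 against -0.0006 over 16666 genes. Without SW033291 replicate 1 the members' median on the TPM scale was -0.02, with 34 of 77 above 0, and 66 stayed above the median of all genes.

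Mrpl39, Mrps9 and Mrps17 were the members whose libraries did not overlap between SW033291 and vehicle, all higher with SW033291, 3.9% of members against 1.95% of all genes. No member was lower without overlap, against 15.1% of all genes. Mrps9, a head protein of the small subunit, was at 33.4, 37.3 and 37.2 TPM with vehicle and 38.1, 48.9 and 53.5 TPM with SW033291. The groups were separated by less than 1 TPM, and 2 of the 3 SW033291 libraries were well above the vehicle libraries. The difference was 0.36 (SE 0.14, 95% interval 0.06 to 0.66, adjusted p = 0.418 by limma). In the authors' deposited table Mrps9 had a log2 fold change of 0.433, a standard error of 0.212 and an unadjusted p of 0.041. It was the only member of 77 there with an unadjusted p under 0.05, against 2.74% of all genes in that table. Young libraries held 30.8 to 37.9 TPM and aged vehicle of batch 1 34.3 to 40.9 TPM, so that the SW033291 libraries of replicates 4 and 6 were the highest of all 13.

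Mrps17, a body protein of the small subunit, was at 35.7, 38.2 and 37.2 TPM with vehicle and 46.4, 42.7 and 43.8 TPM with SW033291, a difference of 0.25 (SE 0.11, adjusted p = 0.464 by limma). All 3 SW033291 libraries were above each of the other 10, whose highest value was 38.5 TPM. Mrpl39 was at 16.1, 16.6 and 16.3 TPM with vehicle and 23.9, 19.3 and 19.7 TPM with SW033291, a difference of 0.34 (SE 0.12, adjusted p = 0.418 by limma). These SW033291 values lay near those of young muscle, at 20.2 to 23.6 TPM. They lay below those of aged vehicle in batch 1, at 26.4 to 26.8 TPM. Young muscle also lies in batch 1, so batch and SW033291 cannot be told apart in this setting. The same vehicle libraries of batch 2 enter the batch difference of Mrpl39 given below. On the lower side, Mrpl16, near the site that binds incoming transfer RNA, differed by -0.23 (SE 0.14), Mrpl4 by -0.24 (SE 0.16) and Mrps2 by -0.17 (SE 0.13). Without SW033291 replicate 6 the value for Mrpl16 was -0.07, and without vehicle replicate 8 or 2 that for Mrpl4 was -0.13 or -0.38. The mean of Mrps2 was lowest with SW033291, at 17.3, 16.3 and 15.6 TPM against 19.6 to 23.6 TPM in young muscle, which lies in the other batch.

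The promoter of Mrps9 is shown because it had the largest difference with SW033291. Its 250 bases before the start in RefSeq, chr1:42850983-42851232 on the plus strand of GRCm38.p6, held no match to the motifs searched:
Mrps9: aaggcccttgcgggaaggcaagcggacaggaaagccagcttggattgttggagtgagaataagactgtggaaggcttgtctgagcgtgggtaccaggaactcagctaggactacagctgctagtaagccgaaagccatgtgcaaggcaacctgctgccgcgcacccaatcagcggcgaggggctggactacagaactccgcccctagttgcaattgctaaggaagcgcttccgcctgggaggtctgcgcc

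The comparison of aged vehicle muscle between batches measures what the batches differ in, since age and injection were the same by the labels. Here 2 of 77 members passed an adjusted p of 0.05 by limma, Mrpl34 and Mrpl39, both lower in batch 2, against 2.25% of all genes in either direction, 0.53% lower and 1.72% higher. The median difference of the members, batch 2 minus batch 1, was -0.10 and that of all genes 0.11, so that 22 of 77 lay above 0, against 64.2% of all genes, and 12 above the median of all genes. This direction held under the 3 other scalings, with 52 to 70 of 77 below 0. The batch comparison shares its batch 1 libraries with the age comparison and its batch 2 libraries with that of SW033291. A shared library that is high or low moves the compared differences in opposite directions, so they are not independent. Libraries did not overlap for 13 members that were lower in batch 2, 16.9% against 4.64% of all genes, and for 1 that was higher, 1.3% against 11.9%. The one that was higher was Mrpl16, at 58.1, 62.3 and 54.0 TPM in batch 1 and 79.0, 75.1 and 81.1 TPM in batch 2, a difference of 0.43 (SE 0.14, adjusted p = 0.127 by limma).

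Mrpl34, a small protein of the large subunit, was at 104, 82.9 and 79.2 TPM in aged vehicle of batch 1 and at 46.0, 56.4 and 52.5 TPM in batch 2. It fell by 0.76 on the log2 scale from batch 1 to batch 2 (SE 0.13, 95% interval -1.04 to -0.48, adjusted p = 0.0145 by limma). The split ran through the whole series, since the 4 young libraries of batch 1 held 83.7, 90.5, 94.5 and 81.3 TPM and the 3 SW033291 libraries of batch 2 held 59.52, 49.99 and 48.16 TPM. No library of batch 1 was as low as any of batch 2, and within a batch neither age (0.01, SE 0.12) nor SW033291 (0.03, SE 0.13) separated the groups. Its promoter in RefSeq, chr8:71464676-71464925 on the plus strand of GRCm38.p6, is shown because Mrpl34 differed most of all members. The capitals mark a ZNF143-type motif 203 bases and an ETS motif 37 bases before the start:
Mrpl34: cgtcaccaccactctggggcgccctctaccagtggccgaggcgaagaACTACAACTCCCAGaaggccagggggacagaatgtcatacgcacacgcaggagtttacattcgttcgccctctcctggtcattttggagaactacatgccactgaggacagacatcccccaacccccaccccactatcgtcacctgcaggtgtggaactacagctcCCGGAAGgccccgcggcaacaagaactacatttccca

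Mrpl39, a large-subunit protein without a bacterial counterpart, fell by 0.67 on the log2 scale between the same groups (SE 0.12, 95% interval -0.93 to -0.42, adjusted p = 0.0169 by limma). Replicates were close in both, 26.6 ± 0.187 TPM (SD, n = 3) in batch 1 and 16.3 ± 0.207 TPM (SD, n = 3) in batch 2. The SD was larger in the other groups, 1.56 TPM in young muscle (n = 4) and 2.53 TPM with SW033291 (n = 3). In the authors' table of SW033291 against vehicle, Mrpl39 had a mean normalised count of 76.08. The part of chance in the close replicates was not tested. Unlike Mrpl34, its batch 2 libraries with SW033291 (19.3 to 23.9 TPM) overlapped the young libraries of batch 1. Both calls were lost without aged vehicle batch 1 replicate 2 (adjusted p = 0.0778 for each), without aged vehicle batch 2 replicate 2 (adjusted p = 0.0758 for Mrpl34 and 0.0662 for Mrpl39) and with only the compared groups in the fit (adjusted p = 0.271 and 0.272). Mrpl39 was also lost without aged vehicle batch 2 replicate 3 (adjusted p = 0.0746) and with a replicate block (adjusted p = 0.0559). Without the 3 libraries rich in neutrophil transcripts both passed, at adjusted p = 0.0222 and 0.024 by limma, a check added after the data were seen.

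**Figure D4:**
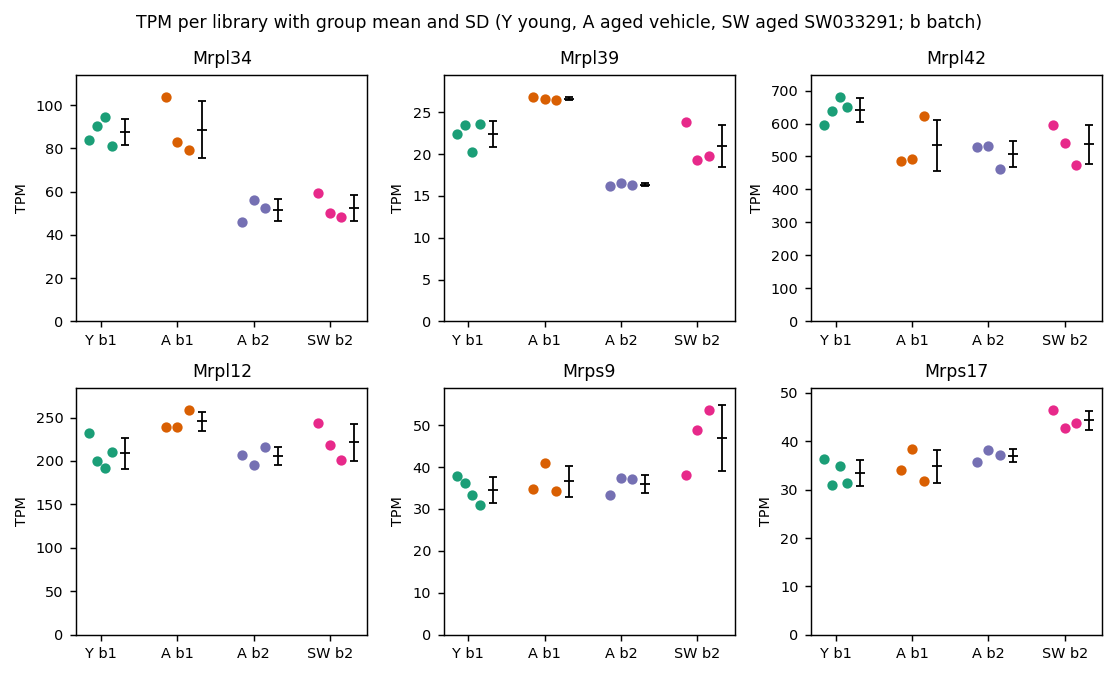
TPM of 6 members in every library of the 4 groups, each axis from 0, with group mean and SD in black. Mrpl34 is split by batch, Mrpl39 is lowest in aged vehicle of batch 2, the mean of Mrpl42 is highest in young muscle, and those of Mrps9 and Mrps17 are highest with SW033291.

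Other members that were lower in batch 2 without overlap did not pass the threshold. Mrpl54 was at 175, 164 and 186 TPM in batch 1 and 114, 153 and 131 TPM in batch 2, a difference of -0.41 (SE 0.12, adjusted p = 0.0826 by limma). Mrpl55, the counterpart of bacterial L31, was at 53.6 to 60.4 TPM and 41.3 to 43.1 TPM, a difference of -0.40 (SE 0.13, adjusted p = 0.115 by limma). The stalk proteins Mrpl10 and Mrpl12 differed by -0.14 (SE 0.12) and -0.25 (SE 0.10), and Mrpl53 of the stalk base by -0.27 (SE 0.11). Without aged vehicle batch 1 replicate 4 the count of members called was 4 (5.19%, against 13.8% of all genes), with Mrpl38 and Mrps12 beside Mrpl34 and Mrpl39, all lower in batch 2. Mrps12 was at 103, 94.7 and 82.8 TPM in batch 1 and 68.1, 53.3 and 83.0 TPM in batch 2. Its highest library of batch 2 thus overlapped batch 1, and the difference was -0.47 (SE 0.15, adjusted p = 0.113 by limma). On the higher side, after Mrpl16, Mrpl44 differed by 0.22 (SE 0.14; 0.11 without batch 1 replicate 4 and 0.14 without batch 2 replicate 3) and Mrps31 by 0.20 (SE 0.11).

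The batch difference bears on age when batches are mixed. With aged vehicle of batch 2 set against young muscle of batch 1, 4 members (5.19%) passed an adjusted p of 0.05 by limma, against 14.1% of all genes: Mrpl34 at -0.75 (SE 0.12), Mrpl39 at -0.43 (SE 0.11), Mrpl55 at -0.40 (SE 0.12) and Mrps31 at 0.34 (SE 0.10). In this contrast age and batch cannot be told apart. None of the 4 was called in the comparison within batch 1, where Mrpl34 differed by 0.01 and Mrpl39 by 0.24.

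The SW033291 effect in batch 2 and the age effect in batch 1 share no library, so they were set against each other. The difference between both effects passed an adjusted p of 0.05 by limma for no member, against 0.109% of all genes, and 2 members (2.6%) had an unadjusted p under 0.05, against 12.8% of all genes. These were Mrpl40, 0.30 with age and -0.15 with SW033291, and Mrpl42, -0.27 with age and 0.08 with SW033291. Their differences of effects were -0.45 (SE 0.18, adjusted p = 0.352 by limma) and 0.35 (SE 0.16, adjusted p = 0.387 by limma). On the TPM scale 29 of the 77 members had opposite signs in both comparisons, 22 higher with age and lower with SW033291 and 7 the reverse, which is 37.7% against 57% of all genes. The count followed the scaling, with 36 under median-of-ratios scaling (3 higher with age and lower with SW033291, 33 the reverse), 39 under quantile normalization and 43 without the 20 most abundant genes, against 53.1%, 53.3% and 50.9% of all genes. Across the 77 genes, which are not independent and come from the same libraries, both effects had a Pearson r of 0.224 and a Spearman rho of 0.186.

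Several members do not sit where their names place them. The 3 paralogs of bacterial S18 are split between the subunits: Mrps18a sits in the large subunit, and Mrps18b and Mrps18c are both proteins of the small subunit. Their mean levels were 106 TPM for Mrps18a, 83.9 TPM for Mrps18b and 102 TPM for Mrps18c, and library ranges overlapped among all 3. Mrps18c was the most uneven, at 161 TPM in aged vehicle batch 1 replicate 4 against 77.5 to 117 TPM in the other 12 libraries. Mrps18b was lowest in that same library, at 62.7 TPM. None differed with age (Mrps18a -0.01, SE 0.13, Mrps18b -0.07, SE 0.15, Mrps18c 0.31, SE 0.17), with SW033291 or between batches beyond the threshold. Mrps30, likewise a large-subunit protein, had a mean of 39.6 TPM and was highest in SW033291 replicate 1, at 52.4 TPM. Mrps36, the protein of the alpha-ketoglutarate dehydrogenase complex, was at 133 to 148 TPM in young muscle, 134 to 152 TPM in aged vehicle of batch 1, 94.2 to 119 TPM in aged vehicle of batch 2 and 93.3 to 134 TPM with SW033291. Its difference between batches, -0.39 (SE 0.13, adjusted p = 0.146 by limma), was among the lower ones without passing the threshold.

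The products of these transcripts meet in a single particle, and correlations between single transcripts from library to library were mostly low. The median Pearson r over 2926 pairs of members was 0.09 across 13 libraries, which share scaling and 4 groups. No value for pairs of other genes stands beside it. With the mean of the other 76 members, 17 had an r above 0.5, 42 lay from 0 to 0.5 and 18 were below 0. Closest to the mean were Mrpl57 with 0.849, Mrpl12 with 0.820 and Mrpl52 with 0.785. Furthest from it were Mrps25 with -0.286, Mrps9 with -0.273 and Mrpl16 with -0.254. The mean of all 77 members moved over a narrow range, from 5.88 to 6.03 in log2(TPM + 1). Outside the group, the genes whose pattern over the 13 libraries was most like that mean were Commd6 (r = 0.866), Fdx1l (0.862), Rpl36 (0.852), Ict1 (0.850) and Coq7 (0.848). Ict1 encodes a protein of the mitochondrial ribosome itself, Fdx1l a mitochondrial ferredoxin, Coq7 an enzyme of ubiquinone synthesis and Rpl36 a protein of the cytosolic ribosome. Of 11799 other genes, 5.1% had an r above 0.5 with the same mean, against the 17 of 77 members above 0.5 with the mean of the other 76.

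The mean levels of the 6 ribosome proteins under other names ran from 23.1 TPM for Dap3 to 274 TPM for Chchd1, and none passed the threshold in the 3 comparisons. Gadd45gip1 was at 36.5, 40.0, 36.6 and 38.4 TPM in young and 53.6, 57.4 and 42.1 TPM in aged vehicle of batch 1, all aged libraries above the young. The difference was 0.41 (SE 0.12, adjusted p = 0.164 by limma), and without aged vehicle batch 1 replicate 4 it was 0.54 with an adjusted p of 0.0246. In batch 2 it stood at 50.9 to 57.8 TPM with vehicle and 44.2 to 50.2 TPM with SW033291. Ict1, which rescues stalled ribosomes, ranged from 50.5 to 67.3 TPM.

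Other parts of mitochondrial translation were read from lists written from general knowledge. Of 28 factors that assemble the ribosome, none passed the threshold in any of the 3 comparisons. With age the lowest p belonged to Trub2, a pseudouridine synthase, with a difference of 0.37 (SE 0.16, adjusted p = 0.424 by limma), and Tfb1m, which methylates the small ribosomal RNA, with 0.36 (SE 0.16, adjusted p = 0.438). Between batches the rRNA helicase Dhx30 differed by 0.47 (SE 0.14, adjusted p = 0.0867 by limma) and Afg3l2, a subunit of the m-AAA protease, by 0.36 (SE 0.12, adjusted p = 0.119). With SW033291, Rbfa, which binds the maturing small subunit, differed by -0.27 (SE 0.14), and Eral1, a chaperone of the small ribosomal RNA, by -0.26 (SE 0.15).

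Among 19 translation factors and regulators, 1 rose with age, against 0.37% of all genes, and 1 was higher in batch 2, against 1.72%. Mss51, a muscle gene named after a yeast activator of mitochondrial translation, was at 34.8, 55.0, 35.7 and 29.1 TPM in young and 128, 72.6 and 124 TPM in aged vehicle of batch 1. It rose by 1.46 on the log2 scale (SE 0.26, adjusted p = 0.0283 by limma), and stood in batch 2 at 107 to 213 TPM with vehicle and 169 to 207 TPM with SW033291. The call was lost without any 1 of 5 batch 1 libraries (young replicates 1, 4 or 5, aged vehicle replicates 2 or 4), at adjusted p = 0.0646 to 0.0986, without a filter on low values (0.0806), with only the compared groups in the fit (0.0733) and with a replicate block (0.999). Lrpprc, which stabilises mitochondrial messages together with Slirp, was at 29.6, 36.4 and 33.8 TPM in aged vehicle of batch 1 and 50.9, 62.2 and 43.7 TPM in batch 2. The difference was 0.63 (SE 0.14, adjusted p = 0.0375 by limma), with adjusted p = 0.0742 under median-of-ratios scaling, 0.07 under quantile normalization, 0.341 with only the compared groups in the fit and 0.114 to 0.175 without aged vehicle batch 1 replicate 2 or batch 2 replicates 2 or 3. Slirp itself was at 190 to 196 TPM with vehicle and 231 to 285 TPM with SW033291, a difference of 0.37 (SE 0.13, adjusted p = 0.418 by limma).

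None of the 17 mitochondrial aminoacyl-tRNA synthetases and none of the 16 genes of mitochondrial transcription and RNA processing passed the threshold in the 3 comparisons. Lars2, the leucyl-tRNA synthetase, varied most, at 73.3 to 248 TPM in young and 1276, 111 and 390 TPM in aged vehicle of batch 1, so that 1 aged library was over 3 times the next. Iars2 differed by 0.40 between batches (SE 0.11, adjusted p = 0.0674 by limma), and Grsf1, which binds mitochondrial RNA, by 0.40 (SE 0.10, adjusted p = 0.0653). Among 9 nuclear regulators of mitochondrial genes none passed. Yy1, a zinc finger transcription factor, was at 18.38, 18.16 and 20.04 TPM with vehicle and 10.48, 13.3 and 12.21 TPM with SW033291, without overlap. The difference was -0.62 (SE 0.15, adjusted p = 0.344 by limma). Esrra, the most abundant regulator, ranged from 84.1 to 102 TPM over all 13 libraries, and Nrf1 from 5.82 to 12.7 TPM.

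The members were set beside the cytosolic ribosomal proteins and the nuclear subunits of the respiratory chain. With age the medians were 0.07 for the members, 0.27 for 86 cytosolic ribosomal proteins and 0.09 for 76 respiratory chain subunits. Of the cytosolic list 1 was called, higher, against 0.37% of all genes, and of the respiratory chain none. The cytosolic call was lost under the 3 other scalings, without a filter, with only the compared groups, with the replicate block and without any 1 library of batch 1 other than aged vehicle replicate 4. With SW033291 they were 0.03, 0.04 and 0.12, with none called. Between batches the medians were -0.10, -0.27 and -0.12, with 2, 12 and 10 called, all lower in batch 2, where 0.53% of all genes were called lower. None of the 3 sets had a call with only the compared groups in the fit, and under quantile normalization 2, 6 and 4 were lower. The lower calls numbered 1 cytosolic and 3 respiratory without aged vehicle batch 1 replicate 2, 1 and 2 without batch 2 replicate 2, and 3 and 1 without batch 2 replicate 3. They numbered 16 and 20 without batch 1 replicate 4, and 17 and 11 without batch 2 replicate 8. By library, the cytosolic ribosomal proteins stood highest in aged vehicle batch 1 replicate 4, with a median deviation of 0.401 from their own means, where the members had 0.107 and the respiratory chain 0.138. This was the library with the most neutrophil and red cell transcripts, and without it the age median of the cytosolic list was 0.17 and that of the members 0.08.

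**Figure D5:**
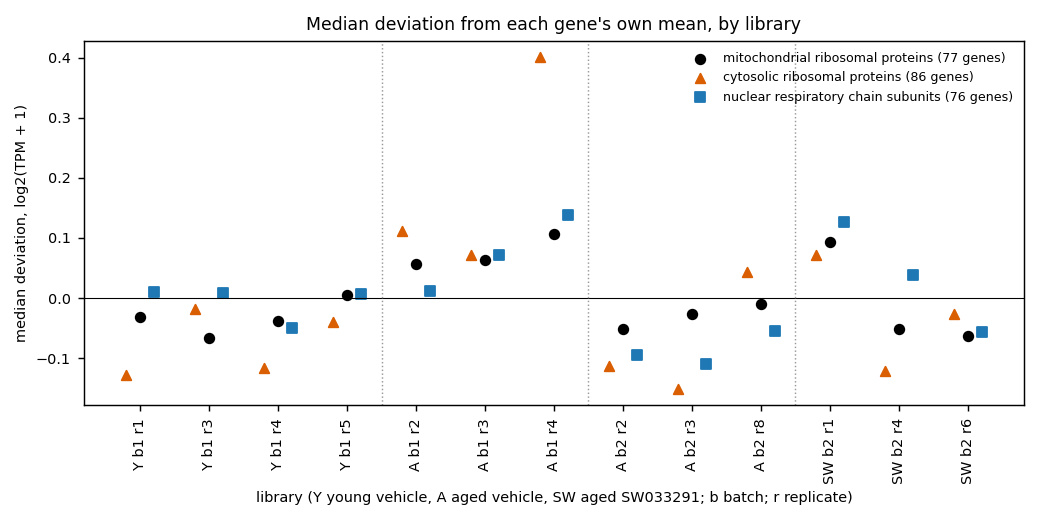
Median deviation of log2(TPM + 1) from each gene's own mean in every library, for the members (circles), cytosolic ribosomal proteins (triangles) and nuclear respiratory chain subunits (squares). The members stay between -0.066 and 0.107, and the cytosolic ribosomal proteins reach 0.401 in aged vehicle batch 1 replicate 4.

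Promoters were taken from RefSeq on GRCm38.p6 as the 250 bases before each start, and 68 of the 77 members matched, with 74 promoters. Motifs were searched by exact letters on both strands. The palindrome of 10 bases that is the site of Nrf1, a factor known to drive many nuclear genes of mitochondria, was in 3 of 74 member promoters (4.05%), against 1.65% of the promoters of protein-coding genes tested and 0.782% of all promoters. Its overlapping core CATGCGC was in 8 (10.8%, against 5.61% and 3.24%). The ETS motif CCGGAAG was in 17 (23.0%, against 13.2% and 6.91%), and AAGATGGC, the site of Yy1, in 4 (5.41%, against 1.94% and 1.56%). TCAAGGTCA, the site of Esrra, was in none, against 0.277% and 0.387%, and the letters TATAAA in 5 (6.76%, against 6.74% and 12.4%). The ZNF143-type motif of 14 bases, searched after the promoter sequences had been read, was in 3 (4.05%, against 1.19% and 0.487%). The 250 bases were not cut where a neighbouring gene starts, so some matches can lie within the neighbour. A match describes letters only, and no binding was measured.

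The 3 members with the full Nrf1 palindrome are shown because they include Mrpl39, called between batches, and Mrpl9, lowest in p with age. The palindrome, in capitals, lies 87 bases before the start in Mrpl32 (chr13:14613105-14613134, minus strand), 125 bases before it in Mrpl39 (chr16:84735350-84735379, minus strand) and 28 bases before it in Mrpl9 (chr3:94443298-94443327, plus strand), all on GRCm38.p6 from RefSeq:
Mrpl32: tttgacccttGCGCATGCGCaagaggggcc
Mrpl39: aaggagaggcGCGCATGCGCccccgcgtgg
Mrpl9: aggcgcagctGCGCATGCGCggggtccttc
The differences of these members with age were -0.13 for Mrpl32, 0.24 for Mrpl39 and 0.27 for Mrpl9.

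Mrpl32, Mrpl36 and Mrps11, 3 of the members with the Yy1 letters, are shown because Yy1 was lower with SW033291 without passing the threshold. The letters lie 242 bases before the start in Mrpl32, 30 in Mrpl36 and 107 in Mrps11. On the other strand Psma2 starts 205 bases from Mrpl32, and Mrpl46 42 bases from Mrps11. In Mrpl32 and Mrps11 the letters thus lie past the neighbour's start, on its transcribed side. On GRCm38.p6 the windows are Mrpl32 (chr13:14613258-14613287, minus strand), Mrpl36 (chr13:73330968-73330997, plus strand) and Mrps11 (chr7:78783013-78783042, plus strand). All 3 carry the letters on the reverse strand, so that the capitals read as the reverse complement of the searched motif, and the sequences come from RefSeq:
Mrpl32: cgcgctctGCCATCTTtacccggaaagtcg
Mrpl36: cgtgaccttacGCCATCTTtcttcctggcg
Mrps11: ctacgggcgccGCCATCTTtctgtcttccc
With SW033291 these members differed by values on both sides of 0, -0.003 for Mrpl32, -0.03 for Mrpl36 and 0.03 for Mrps11, none past the threshold.

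Many members share a start region with a gene on the other strand. A start on the opposite strand, facing away, lay within 1000 bases for 26 of 68 members (38.2%), against 19.9% of 8941 genes tested. Mrpl46 and Mrps11, of different subunits, start 42 bases apart, and across 13 libraries their levels had an r of 0.223. Mrps27 starts 108 bases from Ptcd2, which acts on mitochondrial RNA (r = 0.488), and Mrpl47 308 bases from Ndufb5, a subunit of complex I (r = 0.395). Exons overlap between Mrpl46 and Mrps11 (12.2% and 7.97% of their exon bases) and between Mrpl47 and Ndufb5 (24.2% of those of Mrpl47). The part of shared reads in these r values was not tested. At the other end of the range Mrpl55 had an r of -0.578 with its neighbour 2610507I01Rik.

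Some members overlap other genes, and the library kit, TruSeq v2, does not mark the strand, so reads from overlapping exons cannot be told apart. By GENCODE on GRCm38, a build other than the authors', exons of 18 of the 77 members overlapped those of another gene tested, and for 10 the overlap covered over 10% of their exon bases. Among these the share was highest for Mrps34 (77.8%, Mapk8ip3), Mrps25 (69.8%, Nr2c2), Mrpl19 (36%, Gcfc2), Mrpl24 (26.3%, Rrnad1) and Mrpl47 (24.2%, Ndufb5). Genes tested were found by symbol, so any listed under another symbol were missed and these counts are lower bounds. Counting overlap with any annotated gene, the share was 88% for Mrpl53, 33.4% for Mrpl43 and 30.5% for Mrps18b, which are outside the 18. The values of these members are therefore uncertain. Mrpl34, Mrpl39, Mrpl42, Mrps9 and Mrps17 were not among the 18, while Mrpl9 (5.81%) and Mrpl44 (7.66%) were.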

How the data were processed

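RNA of whole quadriceps muscle was measured in 13 libraries of 4 groups, taken from the labels. STAR, RSEM, DESeq2, DESeq and build mm9 are named, per the submitters' processing notes, without versions or order. The authors deposited a TPM table of 24015 genes, so the depth and counting error of single libraries are unknown. They also deposited 2 tables of comparisons (813 genes for age, 24013 for SW033291) that hold, per the file headers, a mean of normalised counts (a signal), log2 fold changes, their standard errors, a test score and a p-value. Their covariates are unknown here.

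The names of the deposited TPM table were restored by undoing 27 spreadsheet dates, sorting all names in byte order and putting them on the rows as they stood. Values were analysed as log2(TPM + 1), which understates changes of low genes, for 11876 genes at 1 TPM or more in 3 libraries. limma 3.58.1 (R 4.3.3) fitted 1 mean per group over the 13 libraries together, using eBayes with its trend option, and p-values were adjusted by Benjamini-Hochberg over all genes, with 0.05 as the threshold. Its code was tested on simulated data. Alternatives were other pseudocounts (0.1 and 0.5), filters, scalings, libraries left out, only the compared groups, a replicate block and the other batch. Described one by one were members past the threshold, the 3 lowest p in each direction, the 5 highest and lowest levels, the extremes of spread, members with a well-known role, the 5 genes most like the members' mean and the first genes of each list. One promoter sequence is not reported here. The members, lists and this rule were chosen with earlier results of these data known.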

Additional observations from a re-analysis of the deposited data

Results flagged for a closer look

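In the young group, the only one with 4 libraries, 1 library stood apart from the other 3 for 3 of 77 members, by Dixon's ratio at the 95% level. Chance flags about 1 in 20 groups, which would be 3.85 of 77. Mrps18c was lowest in young replicate 4, at 90.65 TPM, against 100 to 102 TPM in the others. Mrps25 was lowest in young replicate 1, at 12.44 TPM, against 14.8 to 15.2 TPM. Mrps28, a body protein of the small subunit, was highest in young replicate 4, at 171.72 TPM, against 135 to 140 TPM. No member had a tested difference between the effects of age and of SW033291 past the threshold.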

How the results depend on the processing

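Of 24 results for named members, only 2 passed the threshold in the fit of all libraries, Mrpl34 and Mrpl39 between batches, with 16 alternatives each. The others kept their side of it by staying uncalled. Of 426 values of named members under alternatives, 417 kept their direction and side of the threshold. A further 8 kept their direction but lost the threshold (Mrpl34 and Mrpl39 between batches, given above). The 1 that reversed was Mrpl12 with age, at -0.0191 with aged vehicle of batch 2 in place of batch 1. Members called by limma were 0 with age and with SW033291 under all alternatives except that one, which called 4. Between batches they were 0 with only the compared groups and 0 to 4 with 1 library left out. Counts over all genes, 54 with age in the fit of all libraries, were 27 without a filter, 24 with only the compared groups, 1679 with aged vehicle of batch 2 in place, 297 with both batches and 19 to 92 with 1 library left out. With SW033291 they were 0, but 4 with a pseudocount of 0.1, 4 without the 3 libraries rich in neutrophil transcripts (added after seeing the data) and 0 to 1 with 1 library left out. Between batches they were 267 (204 higher, 63 lower), but 152 under median-of-ratios scaling (49 higher, 103 lower), 98 under quantile normalization (53 higher, 45 lower), 1 with only the compared groups, 1037 without the 3 neutrophil-rich libraries and 18 to 1643 with 1 library left out, the highest without aged vehicle batch 1 replicate 4. For the difference of both effects they were 13, but 1 without a filter, 0 under each other scaling, 5 without the 3 libraries and 0 to 31 with 1 left out. The members' median with age (0.07) was 0.003 under median-of-ratios scaling, -0.0001 under quantile normalization, -0.0229 without the 20 most abundant genes, -0.0092 with aged vehicle of batch 2 in place and 0.0757 to 0.1186 with 1 library left out, the highest without aged vehicle replicate 2. With SW033291 it was 0.17 and 0.14 under the first pair of scalings, between batches -0.24 and -0.17, and for the difference of effects (-0.04) 0.18, 0.16 and 0.10 under the 3 scalings, and -0.0985 to -0.0233 with 1 library left out. The replicate block gave 6 genes and a members' median of 0.12 with age, and 905 genes between batches, with 3 members called (Mrpl34, Mrpl38 and Mrps12) and Mrpl39 at an adjusted p of 0.0559. Same-numbered libraries had correlations of deviations of 0.171 and 0.04 (age) and -0.147 and -0.06 (batches), so the numbers were not taken as pairs. No paired analysis was possible for SW033291 because its groups share no replicate number. The cause of these shifts was not tested. TPM keep no depth, so it is unknown what the depth of single libraries limits here. With mean normalised counts of 34.2 to 684 in the authors' table of SW033291 against vehicle, counting error can be part of the members' spread. Its size was not tested.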
